A study of Mus musculus with 6 samples.

Results

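The 9 genes described here are those by which hepatoblasts, the epithelial cells of the fetal liver, are usually recognised: the secreted proteins Alb, Afp and Ttr, the lipoprotein genes Apoa1, Apoa2 and Apob, the transcription factor Hnf4a and the keratins Krt8 and Krt18. They were taken by symbol from the table of raw read counts, which lists 37576 genes, and all 9 were found and had enough reads to be tested. Livers came from C57BL/6 embryos at embryonic day 12.5 and were dispersed whole to single cells, and Trizol RNA of the suspension went into ordinary Illumina sequencing. Wild type is represented by the male liver 2 and the female livers 15 and 17. The mutant livers, 6, 16 and 19, are all male and homozygous for a change of 1 residue in the RNA-editing enzyme ADAR1 (genotype Adar1E861A/E861A, called E861A below). By the genotype label the allele is not limited to 1 cell type, and no litter is named.

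Hepatoblasts bud from the foregut endoderm and can become hepatocytes or bile duct cells. In the midgestation fetus they share the liver with a large population of maturing red cells, and they already secrete plasma proteins and lipoproteins under the control of a small network of transcription factors in which HNF4A is central. ADAR1 turns adenosine into inosine in double-stranded RNA, and the E861A protein binds RNA but does not edit it.

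Between 35280460 and 43733715 reads were counted in genes per library, and a hepatoblast gene had from 1484 reads (Krt18 in wild type 15) to 587499 reads (Afp in E861A 16). Levels are given as counts per 1e6 reads (CPM) scaled by the trimmed mean of M values (TMM), and levels that are compared between genes as reads per kilobase of exon and 1e6 reads (RPKM). The 3 livers of a genotype are separate samples by their labels, and the tests measure the spread between them. In RNA of a whole organ, a different number of hepatoblasts and a different amount of RNA in each hepatoblast cannot be told apart. Sex is partly tied to genotype, and the fits with sex in the model and of the male livers alone are given for the hepatoblast genes after the gene by gene values. The libraries also differed in epithelial genes, some of them foregut factors and some, such as Epcam and the claudins, not specific to gut. The summed level of a list of 9 such genes was 50.3, 2.06 and 10.4 CPM in wild type 2, 15 and 17. It was 6.26, 48.2 and 76.7 CPM in E861A 6, 16 and 19. Shh and Cdx2 had no read in wild type 15, nor Sox2 in E861A 16.

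The sequences before the start sites of these genes were read for short runs of letters that members share or lack. In the RefSeq annotation (build GRCm38.p6) the 250 bases before a start site were searched, on both strands, for core letters of binding sites that liver promoters are known for. A total of 8 genes was searched, Ttr being left out. The letters were GTTAAT for the core of an HNF1 site, found in 6.43% of 32851 such windows of all genes, CAAAGNNCA for an HNF4 site (5.49%), TTGCNNAA for the C/EBP core (9.56%), TGTTTAC for the FOXA core (3.17%), TATAAA for the TATA box (12.4%) and 2 copies of GAAA set 2 bases apart for the core of an interferon response element (2.98%). Shown are the 2 most abundant members, the member that stood lowest in E861A against wild type, the second of 2 windows of the transcription factor, and both keratins. Each reads from 5′ to 3′ along the gene, with matches in capitals.
Alb: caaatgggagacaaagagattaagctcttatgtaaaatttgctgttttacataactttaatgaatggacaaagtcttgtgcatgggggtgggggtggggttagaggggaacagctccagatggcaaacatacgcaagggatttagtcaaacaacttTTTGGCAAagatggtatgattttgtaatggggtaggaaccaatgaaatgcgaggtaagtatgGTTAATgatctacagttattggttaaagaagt
Afp: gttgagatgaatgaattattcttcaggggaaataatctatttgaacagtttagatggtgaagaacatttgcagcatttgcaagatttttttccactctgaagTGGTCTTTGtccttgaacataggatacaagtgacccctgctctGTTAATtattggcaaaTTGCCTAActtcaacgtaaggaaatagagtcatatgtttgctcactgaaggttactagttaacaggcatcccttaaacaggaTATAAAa
Apob: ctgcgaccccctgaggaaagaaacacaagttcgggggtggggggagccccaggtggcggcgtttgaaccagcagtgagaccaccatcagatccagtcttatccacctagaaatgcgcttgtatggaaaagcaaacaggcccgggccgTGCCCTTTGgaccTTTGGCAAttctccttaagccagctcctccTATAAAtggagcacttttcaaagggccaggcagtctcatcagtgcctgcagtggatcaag
Hnf4a: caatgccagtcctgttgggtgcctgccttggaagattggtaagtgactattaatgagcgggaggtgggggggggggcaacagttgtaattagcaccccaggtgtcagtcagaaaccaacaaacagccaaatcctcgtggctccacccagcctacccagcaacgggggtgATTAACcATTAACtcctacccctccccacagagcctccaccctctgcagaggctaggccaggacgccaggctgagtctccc
Krt8: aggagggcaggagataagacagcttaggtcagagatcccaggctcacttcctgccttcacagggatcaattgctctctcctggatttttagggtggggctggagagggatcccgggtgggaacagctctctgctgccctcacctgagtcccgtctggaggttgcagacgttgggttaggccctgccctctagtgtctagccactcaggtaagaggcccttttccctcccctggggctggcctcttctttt
Krt18: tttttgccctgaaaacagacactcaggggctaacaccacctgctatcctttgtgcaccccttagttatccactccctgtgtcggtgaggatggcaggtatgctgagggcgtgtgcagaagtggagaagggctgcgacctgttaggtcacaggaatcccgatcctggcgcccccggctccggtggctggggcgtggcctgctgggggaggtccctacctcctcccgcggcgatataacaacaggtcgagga
These are chr5:90460620-90460869 (plus strand) for Alb, chr5:90490464-90490713 (plus) for Afp, chr12:7977427-7977676 (plus) for Apob, chr2:163546905-163547154 (plus) for Hnf4a, chr15:102004343-102004592 (minus) for Krt8 and chr15:102027966-102028215 (plus) for Krt18.

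In these windows the letters of the HNF1 core lie in Alb (bases -32 to -27 before the start), in Afp (-105 to -100) and, 2 times on the other strand, in Hnf4a. The HNF4 letters lie on the other strand in Afp (-148 to -140) and in Apob (-103 to -95). The C/EBP core was found in Alb, Afp, Apob and a second Apoa2 window, the FOXA core only in Apoa2 of the 8 genes, and TATAAA in Afp, Apoa2 and Apob. None of the 6 sets of letters was found in the windows of Krt8, Krt18 or Apoa1, or in the first Hnf4a window, and the letters of the interferon response element were in none of the 8 genes. A match describes letters and is no evidence of binding, and the absence of one speaks only for these 250 bases.

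Krt18, Krt8 and Hnf4a rose in E861A, 5 others were higher on average without passing the test, and Apob was lower on average without passing it. The 3 that rose are read against 7.77% of 16511 tested genes that rose and 4.26% that fell (edgeR's quasi-likelihood test, Benjamini-Hochberg adjusted p under 0.05). The 8 genes with a log2 fold change above 0 compare with 53.3% of all tested genes, and the median log2 fold change of the 9 was 0.51 against 0.04 for all tested genes. In 5 genes (Afp, Apoa1, Hnf4a, Krt8 and Krt18) each E861A liver stood above each wild-type liver, as in 19.4% of tested genes, and in Apob each stood below, as in 14.5%. Alb, Ttr and Apoa2 overlapped between genotypes.

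**Figure D1:**
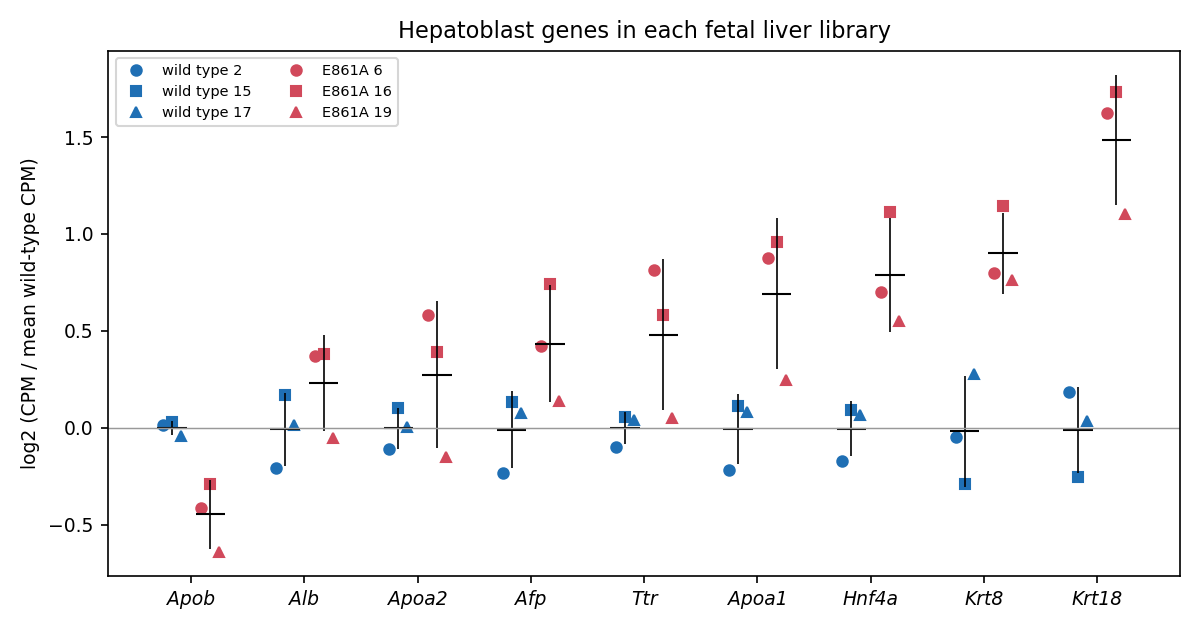
Level of each hepatoblast gene in each liver as log2 of its CPM over the mean wild-type CPM (y axis), with wild-type livers in blue and E861A livers in red, genes ordered by their fitted change. Horizontal ticks are means and vertical lines SD over 3 livers. E861A 19 (red triangle) is the lowest E861A liver for all 9 genes, and the keratins and Hnf4a are the genes whose red and blue points stand farthest apart.

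Afp and Alb carry most of the reads of the group. Afp encodes alpha-fetoprotein, the main plasma carrier protein of the fetus, and Alb encodes albumin, which replaces it after birth. The genes are neighbours on chromosome 5 (NCBIM37, 90919740 to 90937933 for Afp and 90889915 to 90905629 for Alb, both on the plus strand). Afp stood at 8435, 10903 and 10450.3 CPM in wild type 2, 15 and 17 and at 13309, 16585 and 10914 CPM in E861A 6, 16 and 19. The highest wild-type liver and the lowest E861A liver were almost level, and the log2 fold change was 0.45 (SE 0.20), short of the threshold in edgeR's quasi-likelihood test (Benjamini-Hochberg adjusted p = 0.196). Alb stood at 5538, 7178 and 6441 CPM in the wild-type and at 8256, 8303 and 6150 CPM in the E861A livers. E861A 19 lay below 2 of the wild-type livers, and the log2 fold change of Alb was 0.25 (SE 0.19; edgeR adjusted p = 0.464). Together the 9 genes took 1.77%, 1.79% and 1.84% of the reads of wild type 2, 15 and 17 against 2.48%, 2.82% and 2.04% of those of E861A 6, 16 and 19.

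Ttr encodes transthyretin, the carrier of thyroid hormone and of retinol-binding protein. It lies on chromosome 18 (NCBIM37, 20823751 to 20832825, plus strand), where the annotated antisense transcript Gm16090 overlaps its exons with 22 reads in all libraries together. The wild-type livers were tightly grouped at 229, 254 and 251 CPM, whereas the E861A livers spread over 429.8, 366 and 253 CPM. E861A 6 and 16 were above every wild-type liver and E861A 19 was not, and the log2 fold change was 0.51 (SE 0.21; edgeR adjusted p = 0.152). Without E861A 19, the lowest E861A liver, it was 0.68 and passed (edgeR adjusted p = 0.0361). No other alternative fit called Ttr, among them that with sex as a covariate (edgeR adjusted p = 0.329).

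None of the 3 lipoprotein genes passed the test, and their fold changes had both signs. Apoa1 encodes the main protein of high-density lipoprotein and lies on chromosome 9 (NCBIM37, 46036663 to 46038549, plus strand). It stood at 562, 706 and 689.99 CPM in wild type 2, 15 and 17 and at 1196, 1269.8 and 773 CPM in E861A 6, 16 and 19. The groups did not overlap, and the log2 fold change of 0.73 (SE 0.22) did not pass (edgeR adjusted p = 0.0717). It passed without E861A 19 (0.0177), with library totals not scaled by TMM (0.0279, with 8.93% of all genes called higher) and in DESeq2 (0.0393), all of them Benjamini-Hochberg adjusted p. Apoa1 passed in none of the other alternative fits. Among them were sex as a covariate (edgeR adjusted p = 0.171) and each other liver left out (0.129 to 0.296).

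Apoa2, whose product is the second protein of high-density lipoprotein, lies on chromosome 1 (NCBIM37, 173155185 to 173156510, plus strand). Its levels of 327, 379 and 354 CPM in wild type 2, 15 and 17 and of 529, 463 and 319 CPM in E861A 6, 16 and 19 overlapped, since E861A 19 was the lowest of the 6 livers. The log2 fold change was 0.31 (SE 0.21; edgeR adjusted p = 0.393).

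Apob was the one member with a negative log2 fold change. It encodes the structural protein of low-density and very-low-density lipoproteins and spans 7984454 to 8023641 on chromosome 12 (NCBIM37, plus strand). Its level was the steadiest of the 9 among wild-type livers, at 762, 769 and 732 CPM, a coefficient of variation of 2.60%. The E861A livers stood at 566, 618 and 484 CPM, each below each wild-type liver, and the log2 fold change was -0.44 (SE 0.15; edgeR adjusted p = 0.105). DESeq2 called it lower at a Benjamini-Hochberg adjusted p of 0.0416, where 5.4% of the 25701 genes with a p-value fell and 5.66% rose. These shares include genes of low count that the edgeR filter removed, so they are not on the same footing as the edgeR shares.

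Apob is also by far the longest of these transcripts, with 13934 exonic bases in GENCODE M1, and in these libraries change went with length. Of the 721 tested genes with at least 10 kb of exon, 2.08% rose and 7.35% fell, with a median log2 fold change of -0.17. Of the 2725 genes of 1 to 2 kb, the class of Ttr, Apoa1, Krt8 and Krt18, 11.2% rose and 1.58% fell, with a median of 0.15. Within its own length class Apob stood at percentile 20.8 of log2 fold changes, Hnf4a (5019 exonic bases) at percentile 93.3 and Krt18 at percentile 93.5. The part of length in these values was not tested.

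**Figure D2:**
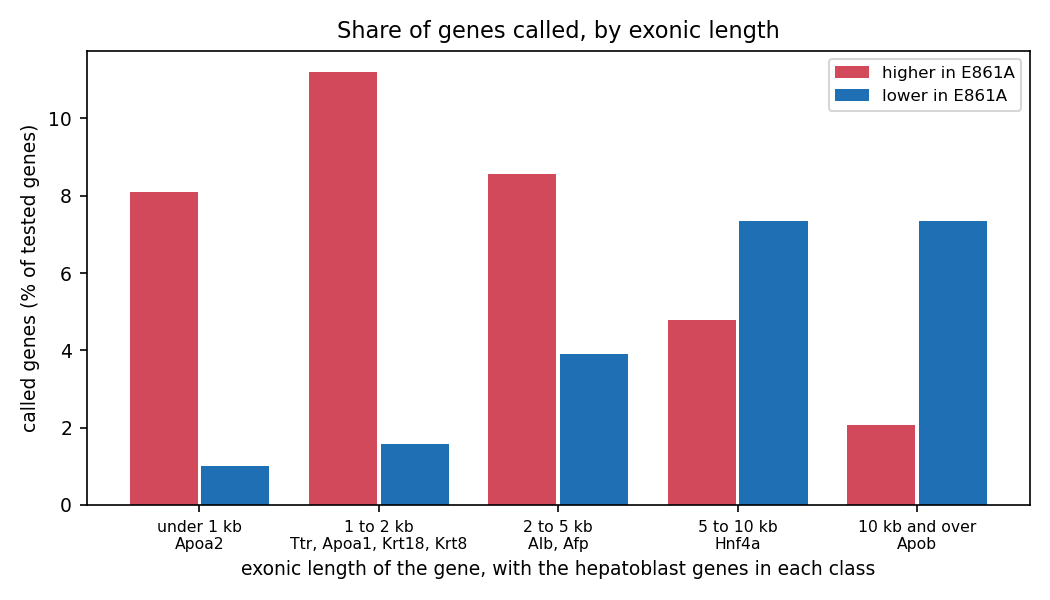
Share of tested genes that rose (red) or fell (blue) in E861A (y axis, percent), by exonic length of the gene (x axis), with the hepatoblast genes of each class named below it. Rises are most frequent from 1 to 2 kb (11.2%) and least frequent at 10 kb and over (2.08%), the class that holds Apob.

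Hnf4a, the nuclear receptor that drives the hepatocyte programme, rose. It spans 163332544 to 163398646 on chromosome 2 (NCBIM37, plus strand), where 0610008F07Rik on the opposite strand overlaps it outside exons with 9 reads in all. It stood at 89.6, 107 and 105.5 CPM in wild type 2, 15 and 17 and at 164, 218 and 148 CPM in E861A 6, 16 and 19. No E861A liver came near the wild-type range. The wild-type mean of 100.8 ± 9.70 CPM compares with an E861A mean of 176.5 ± 37.1 CPM (SD over 3 livers each). This is a log2 fold change of 0.81 (SE 0.18; edgeR adjusted p = 0.0275). The call was lost without wild type 2 (0.0510), 15 (0.0700) or 17 (0.118) or without E861A 6 (0.0551) or 16 (0.104), all edgeR adjusted p, with log2 fold changes from 0.57 to 0.91 over the 6 fits.

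The keratin pair rose most. Krt8 and Krt18 encode the type II and type I keratins that pair into the filaments of simple epithelia, hepatoblasts included. They lie side by side on chromosome 15 (NCBIM37, 101827142 to 101834773 on the minus strand for Krt8 and 101858647 to 101862457 on the plus strand for Krt18). Krt18 stood at 52.4, 38.7 and 47.3 CPM in wild type 2, 15 and 17 and at 142, 153 and 99.0 CPM in E861A 6, 16 and 19. The lowest E861A liver was well above the highest wild-type liver. The mean went from 46.1 ± 6.92 to 131.4 ± 28.6 CPM (SD over 3 livers each), 2.85-fold, with a log2 fold change of 1.51 (SE 0.20; edgeR adjusted p = 0.00332). Krt18 was the one member called in each of the 6 fits that left out a liver, with edgeR adjusted p from 0.0040 to 0.0384.

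Krt8 stood at 60.3, 51.0 and 75.5 CPM in wild type 2, 15 and 17 and at 108, 137 and 106 CPM in E861A 6, 16 and 19. The groups did not overlap, and the mean rose from 62.2 ± 12.4 to 117 ± 17.6 CPM (SD over 3 livers each), with a fitted log2 difference of 0.91 (SE 0.19; edgeR adjusted p = 0.0195). It was not called without wild type 15 (edgeR adjusted p = 0.0671) or without E861A 16 (0.113). Keratin genes have processed pseudogenes, of which RefSeq lists Krt8-ps, so reads shared with such copies leave some uncertainty in these levels.

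Epithelia other than hepatoblasts also make these keratins. The sum of foregut and general epithelial genes given above was high in wild type 2 and in E861A 16 and 19, with different genes behind it. In wild type 2 and E861A 19 the foregut factors Sox2 (4.44 and 4.81 CPM) and Shh (3.17 and 4.86 CPM) were present. In E861A 16 Sox2 had no read and Shh stood at 0.028 CPM, and the sum came mostly from the junction genes Cldn4 (20.02 CPM) and Cldn6 (11.7 CPM). A sum of 6 markers of mesothelium, the epithelial lining of the liver, reached 80.4, 25.2 and 34.95 CPM in the wild-type livers against 74.4, 54.9 and 80.8 CPM in those of E861A. The wild-type livers 15 and 17 lay below each E861A liver in that sum, and wild type 2 lay within their range. Both marker lists were chosen after values were seen, and the part of these epithelia in the keratin values was not tested.

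The fit with sex as a covariate called 0 of the 9 genes, against 3.21% of all tested genes called higher and 0.236% called lower. All E861A livers are male, so with sex in the model the genotype difference rests on wild type 2 against the 3 E861A livers. The male livers alone make the same comparison, with the lone wild type assumed to vary like the E861A livers. The 2 fits are therefore not separate checks of each other. Krt18 and Hnf4a changed less in fitted size than Afp, Alb and Apoa1 but more than Ttr, Apoa2 and Apob. Krt8 changed less than each of these except Apob. Krt18 had a log2 fold change of 1.33 with sex in the model (edgeR adjusted p = 0.0655) and 1.34 in males (0.137). Krt8 had 0.96 (0.135) and 0.97 (0.182), and Hnf4a had 0.98 (0.103) and 0.99 (0.236). Afp went from 0.45 to 0.69 and 0.70, and Alb from 0.25 to 0.45 and 0.46. Apob kept its negative sign in both. The median of the 9 genes was 0.69 with sex in the model and 0.70 in males, against 0.02 for all genes in each. Wild type 2, on which both fits rest, was the lowest wild-type liver for 6 of the 9 genes.

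**Figure D3:**
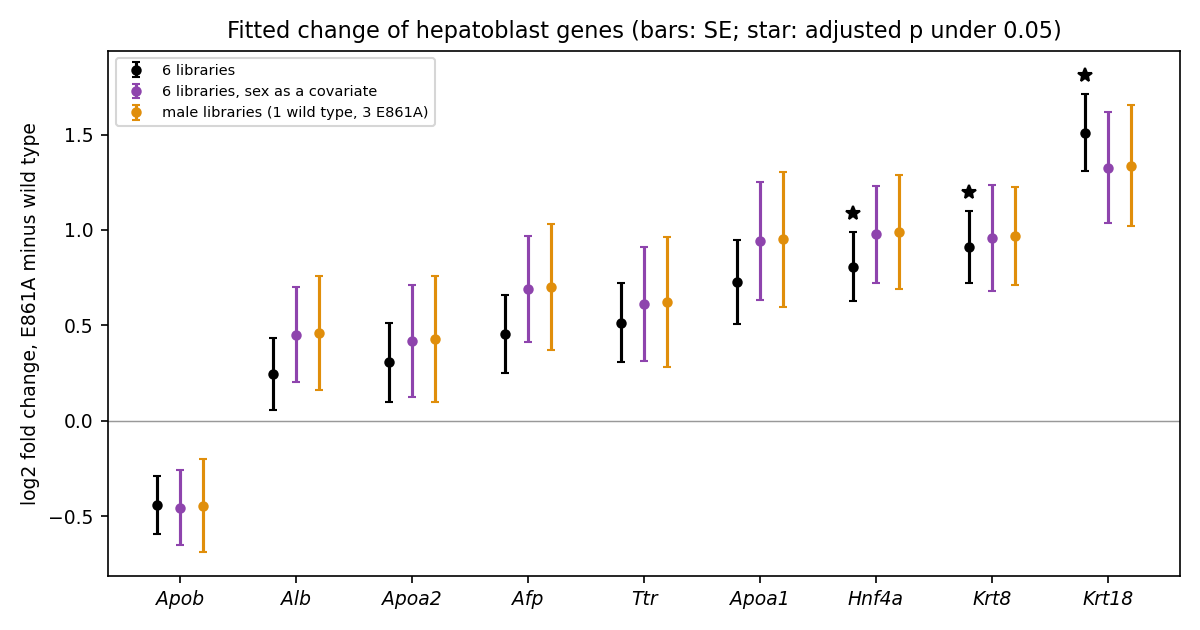
Fitted log2 fold change, E861A minus wild type (y axis), of each hepatoblast gene with all 6 livers (black), with sex as a covariate (purple) and in male livers alone (orange), with bars of 1 SE. Stars mark an edgeR adjusted p under 0.05, reached by Hnf4a, Krt8 and Krt18 with all 6 livers and by no gene in the other fits.

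The authors' deposited table of fold changes, turned here to E861A minus wild type, holds the same 3 genes under an adjusted p of 0.05. It gives Krt18 a log2 fold change of 1.51 (adjusted p = 0.0034), Krt8 0.93 (0.0171) and Hnf4a 0.81 (0.0235) in the authors' deposited table. Apoa1 has 0.71 (0.0661) and Apob -0.43 (0.0909) in the authors' deposited table.

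Single livers shifted many of the genes at once. E861A 19 was the lowest E861A liver for all 9, and E861A 16 the highest for 7, with E861A 6 highest for Ttr and Apoa2. Wild type 2 was the lowest wild-type liver for 6 genes (Alb, Afp, Ttr, Apoa1, Apoa2 and Hnf4a), and wild type 15 the highest for 7. For 8 of the 9 genes the coefficient of variation was larger in E861A, Krt8 being the exception. Without E861A 19, 5 of the 9 were called (Ttr, Apoa1, Hnf4a, Krt8 and Krt18), where 5.89% of all genes were called higher. Krt18 alone was called without wild type 15 (4.64% of all genes) and without E861A 16 (3.02%). Krt8 and Krt18 were called without wild type 2 (10.4% of all genes), without wild type 17 (3.23%) and without E861A 6 (6.24%).

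Each gene was next set against the others within its own liver, as its log2 CPM minus the mean log2 CPM of the other 8. In this measure the scaling of a library largely cancels, but a rise in 1 member lowers the values of the others. Krt18 stood 1.07 higher on this log2 scale in E861A than in wild type, with no overlap between genotypes. Apob stood 1.12 lower, Alb 0.34 lower and Apoa2 0.30 lower, again without overlap. This is relative to the other members, as Alb (0.25) and Apoa2 (0.31) had positive edgeR log2 fold changes. For these 4 genes the exact permutation test, two-sided, gave p = 0.1, the smallest that 3 against 3 livers allow, and an adjusted p of 0.225 over the 9 genes. Krt8 (0.42), Hnf4a (0.28), Apoa1 (0.17), Ttr (-0.07) and Afp (-0.12) overlapped between genotypes. The signs of Afp, Ttr and Apoa2 turned when the median of the other 8 was the reference, to 0.06, 0.46 and 0.15. That median is set by the members of middle level. For Ttr and Apoa2 these were not the same genes in both genotypes, as Apoa1 stood below Apob in wild type and above it in E861A. The turned signs therefore depend on the reference genes and do not describe Afp, Ttr and Apoa2 alone.

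**Figure D4:**
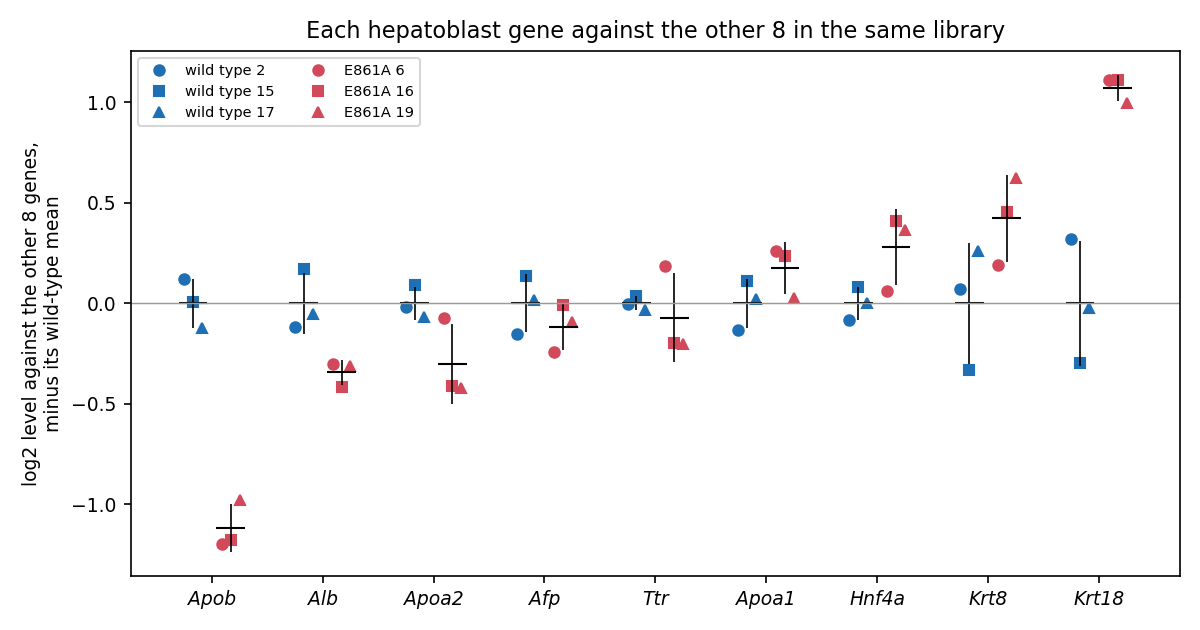
Log2 level of each hepatoblast gene against the mean of the other 8 in the same liver, minus its wild-type mean (y axis), with wild-type livers in blue and E861A livers in red, ticks for means and lines for SD over 3 livers. Krt18 stands 1.07 higher and Apob 1.12 lower in E861A, while Afp, Ttr, Apoa1, Hnf4a and Krt8 overlap.

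Ratios of RPKM between members with related roles were compared in the same way, 4 of them. Library scaling cancels in a ratio, but a change that goes with gene length does not. Apoa1 has 1236 exonic bases and Apob 13934, and the part of length in their ratio was not tested. The wild-type ratio of Afp over Alb, 1.52 ± 0.057, and that of E861A, 1.76 ± 0.19 (SD, n = 3 each), overlapped (exact permutation test, two-sided, p = 0.2, adjusted p = 0.2). Krt18 over Krt8 was 1.12, 0.98 and 0.81 for wild type 2, 15 and 17 against 1.69, 1.44 and 1.21 for E861A 6, 16 and 19. Apoa1 over Apob reached 8.31, 10.3 and 10.6 in the wild-type livers against 23.8, 23.2 and 18.003 in those of E861A, and Apoa1 over Apoa2 went from 0.80 ± 0.051 to 1.08 ± 0.11 (SD, n = 3 each). These 3 ratios were higher in each E861A liver than in each wild-type liver (exact permutation test, two-sided, p = 0.1, the smallest possible; adjusted p = 0.133).

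By level per length the order in wild type was Afp (4760.1 RPKM), Alb (3126), Apoa2 (658), Apoa1 (528), Ttr (201), Apob (54.2), Krt8 (34.5), Krt18 (32.9) and Hnf4a (20.1). Neighbours in that order did not overlap across livers, other than Krt8 and Krt18. In E861A the order was Afp (6521 RPKM), Alb (3705), Apoa1 (873), Apoa2 (814), Ttr (287), Krt18 (93.9), Krt8 (64.9), Apob (39.9) and Hnf4a (35.2). There Apoa1 and Apoa2, Krt18 and Krt8, and Apob and Hnf4a overlapped. Apob was thus above both keratins in every wild-type liver and below both in every E861A liver.

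Genes whose profile over the 6 livers was nearest to the mean profile of the 9 were sought among 13929 genes of at least 1 CPM. The measure was the root mean square distance of log2 CPM centred on each gene's mean, with a median of 0.43 over those genes. The nearest were Agmat (0.027), which encodes agmatinase, Sepp1 (0.034), the plasma selenium carrier, Glud1 (0.045), the mitochondrial glutamate dehydrogenase, C8a (0.046), a chain of complement component 8, and Nat9 (0.053). The members themselves lay between 0.11 (Afp) and 0.50 (Krt18 and Apob). This is a description over 6 livers that share their scaling.

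Other genes of the hepatocyte network were read for comparison. Of 20 other liver transcription factors, 6 rose and 0 fell, with a median log2 fold change of 0.64 against 0.04 for all tested genes. Cebpb, a C/EBP factor that also answers to stress and inflammation, stood at 2.83, 4.12 and 3.42 CPM in wild type 2, 15 and 17 and at 18.5, 24.1 and 17.98 CPM in E861A 6, 16 and 19 (log2 fold change 2.55). The forkhead factors Foxa3 (1.26) and Foxa2 (0.91), which open liver enhancers, and the homeobox factor Hhex (0.78), needed for the liver bud, rose as well. Cebpb alone of the 20 was called with sex in the model (edgeR adjusted p = 0.00581), where the median of the list was 0.34, and in male livers alone 1 of the 20 was called. The count of 6 became 3 without wild type 15, 2 without wild type 17 or E861A 6 and 1 without E861A 16. Across all tested genes 7.77% were called higher with 6 livers. That share was 10.4% without wild type 2, 4.64% without wild type 15 and 3.23% without wild type 17. It was 6.24%, 3.02% and 5.89% without E861A 6, 16 and 19. The same shares stand beside the counts of risen genes in the lists that follow.

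Of 14 other apolipoprotein and lipoprotein assembly genes, 7 rose and 0 fell, with a median of 0.86. Soat2, which esterifies cholesterol for lipoproteins, stood at 40.6, 45.7 and 46.9 CPM in wild type 2, 15 and 17 and at 91.9, 119 and 84.2 CPM in E861A 6, 16 and 19 (log2 fold change 1.15). Lcat, the cholesterol acyltransferase of plasma (1.01), Apoc1 (0.93) and Apoa5 (1.68, under 1 CPM in each liver) rose too. None of the 14 lay below 0. Soat2 alone was called with sex in the model (edgeR adjusted p = 0.0387), and 0 in male livers alone. Leaving out a liver changed the count of 7 to 3 (wild type 15), 2 (wild type 17), 4 (E861A 6) and 1 (E861A 16).

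Of 21 other plasma protein genes, 9 rose and 0 fell, all 21 lay above 0 and the median was 0.69. Hpx, the haem scavenger haemopexin, stood at 62.1, 78.6 and 70.3 CPM in wild type 2, 15 and 17 and at 215, 199 and 139.7 CPM in E861A 6, 16 and 19 (log2 fold change 1.39). The fibrinogen chain Fgb (1.19), the retinol carrier Rbp4 (1.11) and Fetub (2.34) rose too. Hpx alone passed with sex in the model (edgeR adjusted p = 0.0352), and 0 in male livers alone. The count of 9 became 5 without wild type 2, 3 without wild type 15 or E861A 6 and 1 without wild type 17 or E861A 16.

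Of 13 other epithelial keratin and junction genes only Cdh1, which encodes E-cadherin, rose (log2 fold change 0.96), from 38.7, 38.5 and 39.4 CPM in the wild-type livers to 60.2, 89.6 and 76.9 CPM in the E861A livers. The other 12 lay above 0 without passing, and the median was 0.72. None of the 13 was called with sex as a covariate (median 0.42) or among male livers (0.43). The call of Cdh1 was also lost without wild type 17 or E861A 16, while 3 of the 13 were called without wild type 2 and 2 without E861A 19. Krt19, a keratin of bile duct and gut, stood at 8.69, 2.01 and 4.53 CPM in wild type 2, 15 and 17 and 7.21, 15.2 and 15.1 CPM in E861A 6, 16 and 19. Krt19 thus overlapped between genotypes where Krt18 did not.

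Among 10 hepatoblast surface and fetal growth genes, the growth factor receptor Met (0.62) and the aminopeptidase Anpep (0.47) rose and 0 fell, with a median of 0.41. Neither was called with sex in the model (edgeR adjusted p = 0.143 for Met and 0.188 for Anpep) or in male livers alone. Anpep lost its call in each of the 6 fits without a liver, and Met without wild type 15 or 17 or E861A 16 or 19. Dlk1, a hepatoblast surface protein, stood at 1004, 931 and 996 CPM in wild-type livers and at 1482, 1681 and 1242 CPM in E861A livers. Its log2 fold change was 0.59 (edgeR adjusted p = 0.0571). Of the 10 genes 9 lay above 0, and Lin28b lay below it (-0.40, edgeR adjusted p = 0.203). Of 13 mature hepatocyte enzymes and receptors, 3 rose and 0 fell with a median of 0.58: Tat, Pck1 and Asgr1, each below 2 CPM in every liver. With sex in the model, in male livers alone, and without wild type 15, wild type 17 or E861A 16, 0 of these genes were called, and without E861A 6 it was 1. Of 6 bile duct genes 0 passed in edgeR and the median was -0.02, with Spp1 (2.003) and Jag1 (0.41) having the smallest p. That median was 0.93 with 1 gene called without wild type 2 and -0.43 without E861A 19, it was 0.29 in limma-voom and -0.33 with sex in the model, and DESeq2 called Spp1 (adjusted p = 0.0133). Apart from Cebpb, Soat2 and Hpx, each called gene named from these liver lists lost its call without E861A 16.

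**Figure D5:**
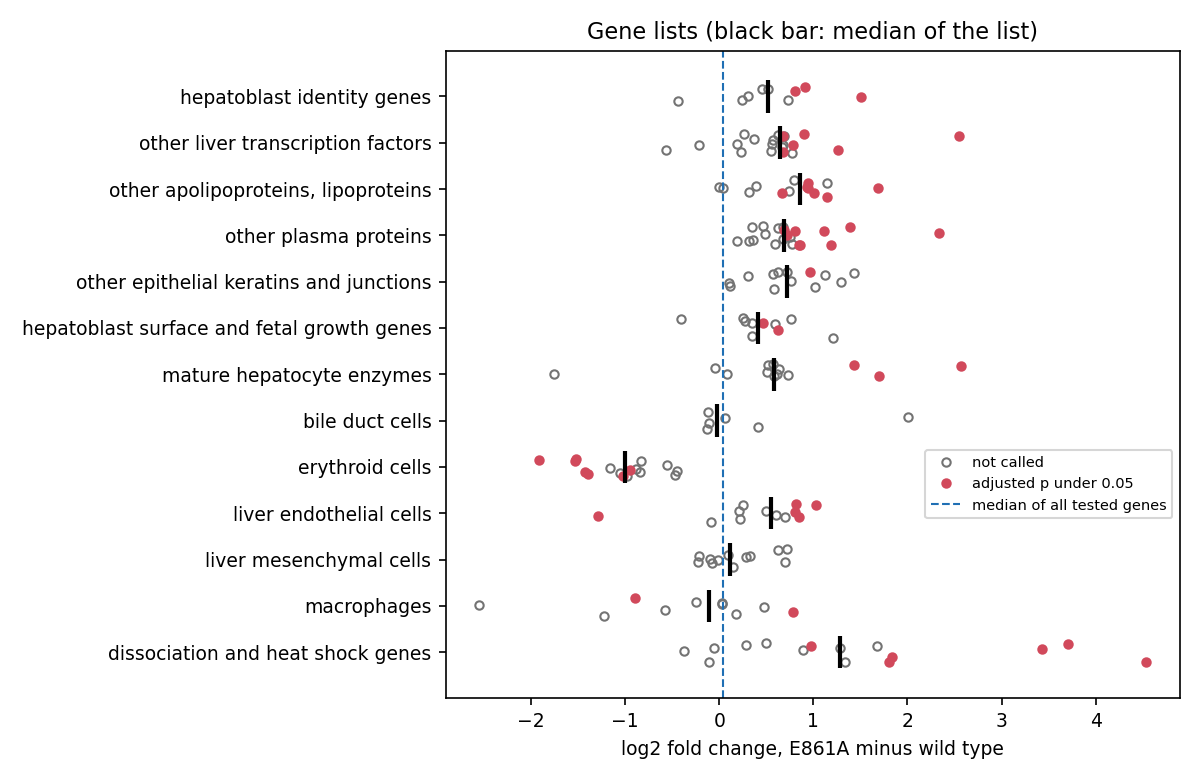
Fitted log2 fold change, E861A minus wild type (x axis), of each tested gene of the hepatoblast group, 7 other liver lists and 5 lists of other cells and of tissue handling (rows); filled red points have an edgeR adjusted p under 0.05, black bars are list medians and the dashed line is the median of all tested genes (0.04). Most genes of the liver lists lie right of the dashed line, those of the bile duct list lie on both sides of it (their median changes sign between fits), and the erythroid genes lie wholly left of it.

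Markers of other cells of the liver were read beside these values. Of 16 erythroid genes 0 rose and 7 fell, with a median of -1.01, and their summed level was 20263, 48658 and 27091 CPM in wild type 2, 15 and 17 and 16886, 17254 and 16209 CPM in E861A 6, 16 and 19. With sex in the model the erythroid median was -0.50 and 0 erythroid genes were called, as in male livers alone (-0.49). The count of 7 became 13 without wild type 2 and 3 without wild type 15, wild type 17 or E861A 16. It was 4 without E861A 6 or E861A 19. Over all tested genes 4.26% fell with 6 livers, against 8.96% without wild type 2, 1.15% without wild type 15 and 0.55% without wild type 17. Without E861A 6, 16 and 19 the share was 2.95%, 0.88% and 3.08%.

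Endothelial genes (4 of 12 rose and 1 fell, median 0.55) summed to 533 to 666 CPM in the wild-type livers and 569 to 813 CPM in the mutant ones. With sex in the model 1 endothelial gene rose and 0 fell, in male livers alone 0 were called, and 0 rose without wild type 17 and 1 without E861A 16. Mesenchymal genes (0 of 12 called, median 0.11) summed to 841 to 2539 CPM and 1036 to 2249 CPM. Without wild type 2 the mesenchymal median was 0.65 and 5 of the 12 were called higher, and with sex in the model or in male livers alone the median was -0.46 and -0.45. Macrophage genes (1 of 10 rose and 1 fell, median -0.11) summed to 302.5 to 357 CPM and 267 to 383 CPM, with 0 called and a median of 0.07 with sex in the model. Genes that answer to tissue dissociation and heat shock rose in 6 of 15 with a median of 1.28, in 6 with sex in the model (median 1.99) and in 5 in male livers alone. They rose in 2 without wild type 17 and in 3 without E861A 16. On the log2 CPM scale their mean level was 3.95, 5.66 and 5.25 for wild type 2, 15 and 17 against 5.81, 6.88 and 6.73 for E861A 6, 16 and 19. Each matched gene of these lists had reads. The part of cell make-up, handling and stress in the hepatoblast values was not tested.

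As a second readout of the same RNA, the authors' table of editing sites was searched for the 9 genes. It holds 6012 sites, and 0 lay within a member. The nearest site was 38.4 kb from Hnf4a and 661 kb from Afp, the closest and the farthest of the 9. The members therefore gave no editing level to compare between genotypes.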

How the data were processed

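Gene counts are whole numbers of reads per gene as deposited by the authors, for 6 libraries. The submitters' processing notes name the builds NCBIM37 and mm9 and, in no order, HTSeq, TopHat2 (2.0.8), Trimmomatic (0.30), BWA, SAMtools (0.1.19), Cufflinks, limma, Bowtie2 (2.1.0.0) and edgeR. Strandedness is not given in the sources used here. Editing levels are fractions of covering reads per site, per the file headers, with p-values deposited by the authors that were not used. The authors' deposited log2 fold changes and adjusted p-values run, per the file headers, from mutant to wild type, and the sign was turned.

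edgeR 4.0.16 in R 4.3.3 (filterByExpr, TMM, robust quasi-likelihood F test) compared the genotypes over 16511 genes with Benjamini-Hochberg adjustment and a threshold of 0.05. SE was taken from the fold change and its F statistic. Log2 CPM used a prior count of 2. RPKM used the union of GENCODE M1 exons. The fit was tested on simulated data. Alternatives were DESeq2 1.42.0, limma-voom (limma 3.58.1), other scalings and filters, sex as a covariate, male libraries only and each library left out. Permutation tests went through every split of the libraries in Python 3.11.15 with NumPy 2.4.6. Each member had over 1000 reads in each library, so the spread between 3 livers per group, not the depth, sets the precision.

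The members and lists were chosen with earlier results of these data known. Named genes are the 9 members, in each other list at most 4 called genes with the smallest p (or 2 where none passed), and the 5 genes of nearest profile. Krt19, Dlk1 and the gut and mesothelium markers were added after their values were seen. List members without a matching symbol or with too few reads were not tested.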

Additional observations from a re-analysis of the deposited data

How the results depend on the processing

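No paired analysis was possible because no liver number occurs in both genotypes and litters are not labelled. Each of the 9 log2 fold changes kept its sign in all 15 alternative fits. Of these, sex as a covariate and male libraries only rest on the same livers for the genotype difference. Of the 9 members, 3 were called higher, against 0 with sex as a covariate or in male libraries only and 1 to 5 with 1 library left out; 0 were called lower, against 1 with DESeq2. Over all genes, 1283 were higher and 703 lower. Sex as a covariate gave 530 and 39, male libraries only 301 and 8, and leaving out 1 library 515 to 1737 and 95 to 1502. DESeq2 gave 1388 lower and a minimum of 1 CPM in 3 libraries 1160 lower. Some of these fits have fewer libraries or degrees of freedom, and the cause of the shifts was not tested. Against the median rather than the mean of the other 8 members, Afp (0.062), Ttr (0.46) and Apoa2 (0.15) changed sign. The median rests on the members of middle level, which for Ttr and Apoa2 differed between genotypes. Library totals with no scaling moved the median log2 fold change of all genes to 0.10 and DESeq2's size factors to -0.01, and both scalings called Hnf4a, Krt8 and Krt18. The number of editing sites in members was 0 at a minimum of 5, 10 or 20 reads. The members' read numbers are high, so that the 3 livers per group, not depth, limit the comparison.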

Other observations

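Apoa4, an apolipoprotein of gut and liver that sits in the same gene cluster as Apoa1, had too few reads for the filter in most livers and was singled out after its values were seen. It stood at 0.023, 0 and 0.053 CPM in wild type 2, 15 and 17 and at 0.024, 36.7 and 0.57 CPM in E861A 6, 16 and 19, so that nearly all of its 1331 reads came from E861A 16. Apoa1 itself was 1269.8 CPM in that liver and 1196 CPM in E861A 6, where Apoa4 was close to 0.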
